A study of Homo sapiens with 5 samples.

Results

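The AKR1C and AKR1B aldo-keto reductases and their relative AKR1A1 were examined in D54 cells, an established human glioma line, with and without silencing of TIP-1. Of the 7 genes AKR1C1, AKR1C2, AKR1C3, AKR1C4, AKR1B1, AKR1B10 and AKR1A1, 5 were held by 6 of the 33297 rows of the array table. AKR1C1 had 2 rows and each of AKR1C2, AKR1C3, AKR1C4 and AKR1B10 had 1. AKR1B1, aldose reductase, and AKR1A1, aldehyde reductase, were not analysed here. All 6 rows carried a single gene symbol. The genes were chosen by how they read in these same 5 arrays, namely by their level in each array, the gap between the controls and the low value with shRNA 3. Those values are therefore given as a description, and no test on them is used as evidence.

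The arrays came from 3 cultures transfected with TIP-1 shRNA, each with a different shRNA, and from 2 transfected with a control shRNA, which were independent clones. TIP-1 is a small PDZ domain protein encoded by TAX1BP3. Every shRNA had 1 array, so a given shRNA and the culture that carried it cannot be told apart. Values are log2 signals as deposited, and a difference of 1 log2 unit is a 2-fold difference in signal.

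Aldo-keto reductases are soluble enzymes that use NADPH to reduce aldehydes and ketones to alcohols. The AKR1C enzymes act on steroid hormones, prostaglandins and reactive carbonyls, and AKR1B enzymes reduce sugars, retinal and lipid aldehydes. Several of them are known targets of NRF2, the transcription factor that answers oxidative and electrophilic stress. The human AKR1C genes lie side by side in 1 cluster and are very alike in sequence, AKR1C1 and AKR1C2 most of all, so an array probe meant for 1 of them may also bind the transcript of the other. Their rows are reported as uncertain for that reason.

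The 250 bases before each AKR1C start site are shown because 3 of the 4 genes had similar profiles across the arrays and AKR1C4 did not. AKR1C4 read only 5.15 to 5.52, under the lower quartile of every array, so a fall there could have gone unseen. Whether these sequences bear on the profiles was not tested. The stretches were taken from RefSeq (build GRCh38.p14) and are written 5′ to 3′ along the gene. All 4 genes matched an entry, AKR1C3 with a pair of start sites. Capitals mark the longest run of letters that the stretches of AKR1C1, AKR1C2 and both AKR1C3 start sites have in common.
AKR1C1, chr10:4963165-4963414, plus strand: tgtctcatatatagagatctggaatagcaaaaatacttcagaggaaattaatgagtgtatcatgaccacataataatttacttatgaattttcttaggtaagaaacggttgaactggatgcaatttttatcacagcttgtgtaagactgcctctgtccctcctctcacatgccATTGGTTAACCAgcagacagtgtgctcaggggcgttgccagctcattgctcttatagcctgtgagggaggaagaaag
AKR1C2, chr10:5003858-5004107, minus strand: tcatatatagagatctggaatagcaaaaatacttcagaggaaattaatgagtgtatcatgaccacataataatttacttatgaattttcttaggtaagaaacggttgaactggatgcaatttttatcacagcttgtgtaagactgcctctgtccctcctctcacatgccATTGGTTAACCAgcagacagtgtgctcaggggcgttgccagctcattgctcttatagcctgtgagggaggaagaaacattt
AKR1C3 (upstream start site), chr10:5048531-5048780, plus strand: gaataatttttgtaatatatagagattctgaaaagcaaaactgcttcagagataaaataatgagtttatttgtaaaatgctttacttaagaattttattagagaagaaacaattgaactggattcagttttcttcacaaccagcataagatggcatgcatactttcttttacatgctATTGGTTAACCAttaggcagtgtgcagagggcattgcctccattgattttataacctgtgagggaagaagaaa
AKR1C3 (downstream start site), chr10:5094164-5094413, plus strand: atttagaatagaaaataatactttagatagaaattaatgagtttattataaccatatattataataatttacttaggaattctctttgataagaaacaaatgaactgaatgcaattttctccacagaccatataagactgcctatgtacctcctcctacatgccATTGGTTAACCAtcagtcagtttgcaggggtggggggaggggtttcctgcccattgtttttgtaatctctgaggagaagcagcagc
AKR1C4, chr10:5196587-5196836, plus strand: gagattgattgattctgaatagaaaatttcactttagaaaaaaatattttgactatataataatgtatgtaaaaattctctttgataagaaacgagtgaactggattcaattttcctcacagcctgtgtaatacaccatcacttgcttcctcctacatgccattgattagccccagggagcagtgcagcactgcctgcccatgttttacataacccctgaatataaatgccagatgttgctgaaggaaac

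The AKR1C1 and AKR1C2 stretches were identical at 245 of 254 aligned positions (96.5%). Identity of AKR1C1 was 72.4% with the upstream AKR1C3 start site, 69.9% with the downstream one and 64% with AKR1C4. The shared run, ATTGGTTAACCA, is 12 letters long and began 77 bases before the start of AKR1C1, 81 before that of AKR1C2, and 73 and 86 before those of AKR1C3. It was not in the AKR1C4 stretch. Searched on both strands, it was present in 5 of 35116 stretches of the same length in the RefSeq table (0.0142%). Those were these 4 and the one of PPFIA2, a gene for a synapse scaffold protein. The run was picked because these 4 share it, so their hits are fixed by that choice and nothing is read from the count. The run holds an inverted CCAAT box, and CCAAT on either strand was in 32% of all stretches, among them the same 4, but not in that of AKR1C4. The antioxidant response element core TGACNNNGC, which NRF2 binds, was in 10.9% of all stretches and in none of these 5, and the AP-1 site TGAGTCA was in 4.2% and in none. A match of letters is no evidence of binding, and a missing match covers this window alone.

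The silenced gene was checked in every array. The row of TAX1BP3, which also carries the symbol of the read-through transcript P2RX5-TAX1BP3, read 9.81, 9.61 and 9.55 in shRNAs 1, 2 and 3, against 12.05 and 12.10 in controls 1 and 2. It fell by 2.42 on the log2 scale (SE 0.105, limma adjusted p = 0.011) and was the sole row of the table past the threshold. Leaving out control 1, control 2 or shRNA 2 ended that call, at limma adjusted p of 0.386, 0.387 and 0.129 and differences of -2.45, -2.39 and -2.39. The 3 shRNA arrays thus read close to each other for the silenced gene, unlike for AKR1C1, AKR1C2 and AKR1C3 below, and whether the amount of silencing bears on those genes was not tested. Array medians were 7.95, 7.90 and 7.88 with shRNAs 1, 2 and 3, against 7.96 and 7.98 in the controls. Of 10 glioma and astrocyte markers, 0 passed the limma threshold, and their summed level ran from 90.85 to 91.84 with TIP-1 shRNA and from 91.38 to 91.93 in controls. SOX9 was above both controls in all 3 shRNA arrays (10.60, 10.63 and 10.74 in shRNAs 1, 2 and 3, against 10.39 and 10.40 in controls 1 and 2), and EGFR below both (11.12, 11.12 and 11.17 in shRNAs 1, 2 and 3, against 11.23 and 11.30 in controls 1 and 2). VIM read 13.84 to 14.02 with TIP-1 shRNA and 13.95 to 14.01 in controls. GFAP read 7.86 to 8.14 with TIP-1 shRNA and 8.04 to 8.14 in controls, close to the array medians. The table holds no detection call, so a dim marker cannot be called absent.

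AKR1C2, which inactivates the androgen dihydrotestosterone and is also known as a bile acid binding protein, had the lowest difference of all 33297 rows with shRNA 3. Its row (7931832) read 9.57, 9.89 and 7.03 in shRNAs 1, 2 and 3, against 11.22 and 9.44 in controls 1 and 2. shRNA 3 lay below both controls, while shRNAs 1 and 2 lay between them. The shRNA 3 signal was 9.83-fold lower than the control mean (log2 difference -3.30). Against the single controls, the shRNA 3 differences were -2.41 from control 2 and -4.19 from control 1.

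AKR1C1, the closest relative of AKR1C2 and an inactivator of progesterone, had the next lowest difference through its row 8180376. That row read 9.47, 9.72 and 7.07 in shRNAs 1, 2 and 3, against 10.86 and 9.48 in controls 1 and 2. The order of the arrays was nearly that of AKR1C2, with control 1 highest, shRNA 2 next and shRNA 3 lowest. shRNA 1 and control 2 differed by only -0.01, shRNA 1 minus control 2. The shRNA 3 signal was 8.60-fold lower than the control mean (log2 difference -3.10). Against control 2 alone, the differences were -2.42 for AKR1C1 and -2.41 for AKR1C2.

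The other AKR1C1 row (7925918) varied less. It read 8.07, 8.05 and 7.39 in shRNAs 1, 2 and 3, against 8.19 and 8.08 in controls 1 and 2. All 3 shRNA arrays were below both controls, but shRNA 1 was below control 2 by just 0.01 (difference -0.01). The difference was -0.74 with shRNA 3, a 1.68-fold lower signal, so the 2 rows of AKR1C1 shared a direction and disagreed in size. In the annotation, row 8180376 carries a RefSeq transcript and row 7925918 a single cDNA clone. Which AKR1C transcripts each of them measures was not tested.

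AKR1C3, which makes testosterone from androstenedione and also makes a prostaglandin of the F series, had its arrays in the same order as that of AKR1C1 row 8180376, at smaller differences. It read 7.53, 7.92 and 6.39 in shRNAs 1, 2 and 3, against 8.40 and 7.65 in controls 1 and 2. shRNA 3 was again below both controls and shRNA 2 between them, with shRNA 1 just under control 2. The shRNA 3 signal was 3.11-fold lower than the control mean (log2 difference -1.64), and the difference from control 2, the lower control, was -1.26. By its difference from the control mean the row ranked 11 of all rows, counted from the lowest.

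AKR1C4, the liver member of the cluster, did not share the low value with shRNA 3. It read 5.38, 5.52 and 5.29 in shRNAs 1, 2 and 3, against 5.20 and 5.15 in controls 1 and 2. All 3 shRNA arrays lay above both controls, by a mean of 0.22 log2 units. Its values were under the lower quartile of every array (6.35 to 6.42 with TIP-1 shRNA and 6.44 to 6.45 in controls). A fall in a row so dim could have gone unseen. ALB, the albumin gene that marks liver cells, read 5.39 to 5.44 with TIP-1 shRNA and 5.35 to 5.44 in controls. The other liver markers measured were brighter. APOA1 read 8.33 to 8.57 with TIP-1 shRNA and 8.60 to 8.70 in controls, and TTR 6.99 to 7.37 and 7.12 to 7.27.

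AKR1B10, which reduces retinal and lipid aldehydes, was likewise dim. It read 5.47, 5.78 and 5.87 in shRNAs 1, 2 and 3, against 6.00 and 5.87 in controls 1 and 2. All 3 shRNA arrays were below both controls, shRNA 3 by the smallest margin (difference from control 2 of -0.0047). The difference of shRNA 3 from the control mean was -0.07, which turned to 0.02 when each array was centred on its median. shRNA 1 had the lowest value, so AKR1B10 did not order the arrays as the AKR1C1, AKR1C2 and AKR1C3 rows did.

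**Figure D1:**
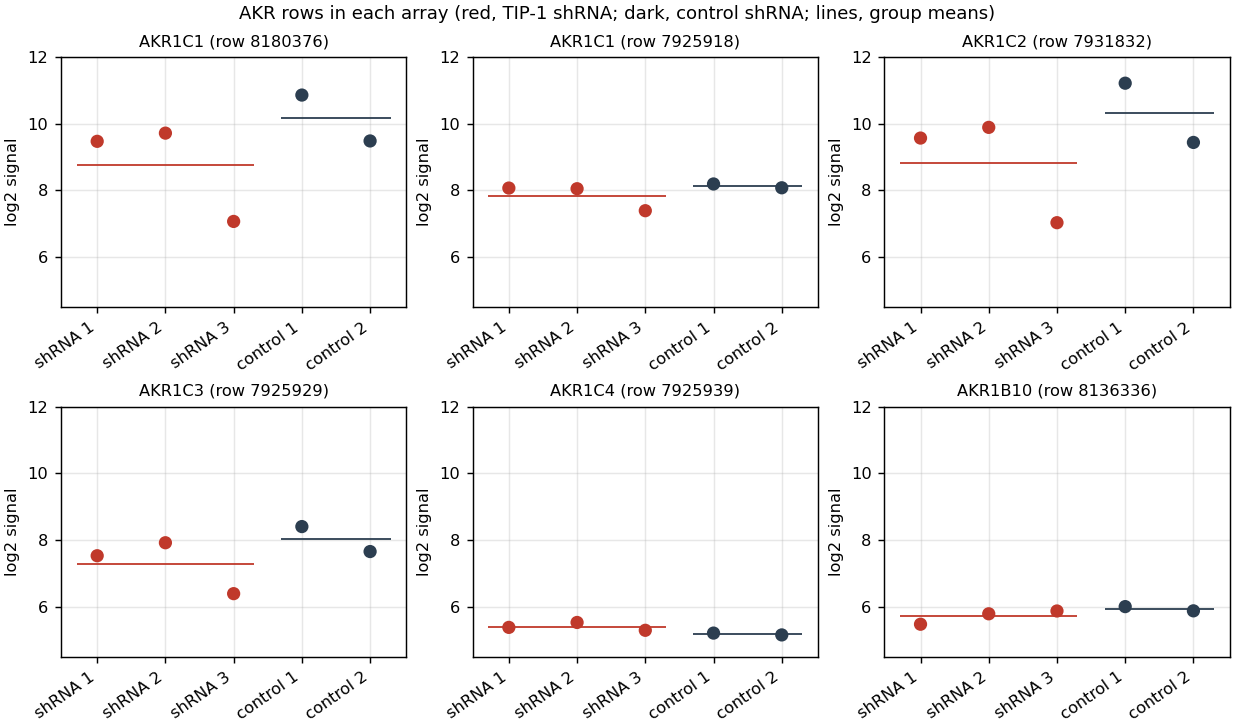
Log2 signal (vertical axes) of the 6 AKR rows in the 3 TIP-1 shRNA arrays (red) and the 2 control shRNA arrays (dark), 1 point per array, with a line at each group's mean. In the rows of AKR1C2, AKR1C3 and AKR1C1 (8180376), shRNA 3 is lowest and control 1 highest, while AKR1C4 and AKR1B10 vary little.

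Counted over the 6 rows, 3 were at least 2-fold below the control mean with shRNA 3, those of AKR1C1 (8180376), AKR1C2 and AKR1C3, where 0.258% of all rows were. The same 3 were at least 2-fold below the lower control, against 0.156% of all rows. In the other direction, 0 of the 6 exceeded the control mean 2-fold with shRNA 3, as 0.484% of all rows did. None was at least 2-fold below the control mean with shRNA 1 (0.183% of all rows) or shRNA 2 (0.312%). These counts use the values that chose the genes, so nothing is read from them. The rows nearest to the 2-fold line with shRNA 3 were AKR1C3 inside it at -1.64 and AKR1C1 row 7925918 outside it at -0.74. The median over the 6 rows was -1.19 with shRNA 3, beside -0.03 over all rows.

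The controls differed from each other for the same genes. Control 2 minus control 1 was -1.78 for AKR1C2 (3.43-fold lower), -1.38 for AKR1C1 row 8180376 (2.60-fold) and -0.75 for AKR1C3 (1.68-fold). The first 2 rows passed a 2-fold gap, as did 0.426% of all rows in that direction. By the size of the gap in either direction, AKR1C2 ranked 22 and AKR1C1 71 of 33297 rows. The remaining rows had gaps of -0.11 (AKR1C1 row 7925918), -0.05 (AKR1C4) and -0.13 (AKR1B10), against a median of 0.01 over all rows. No test of these gaps was made.

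**Figure D2:**
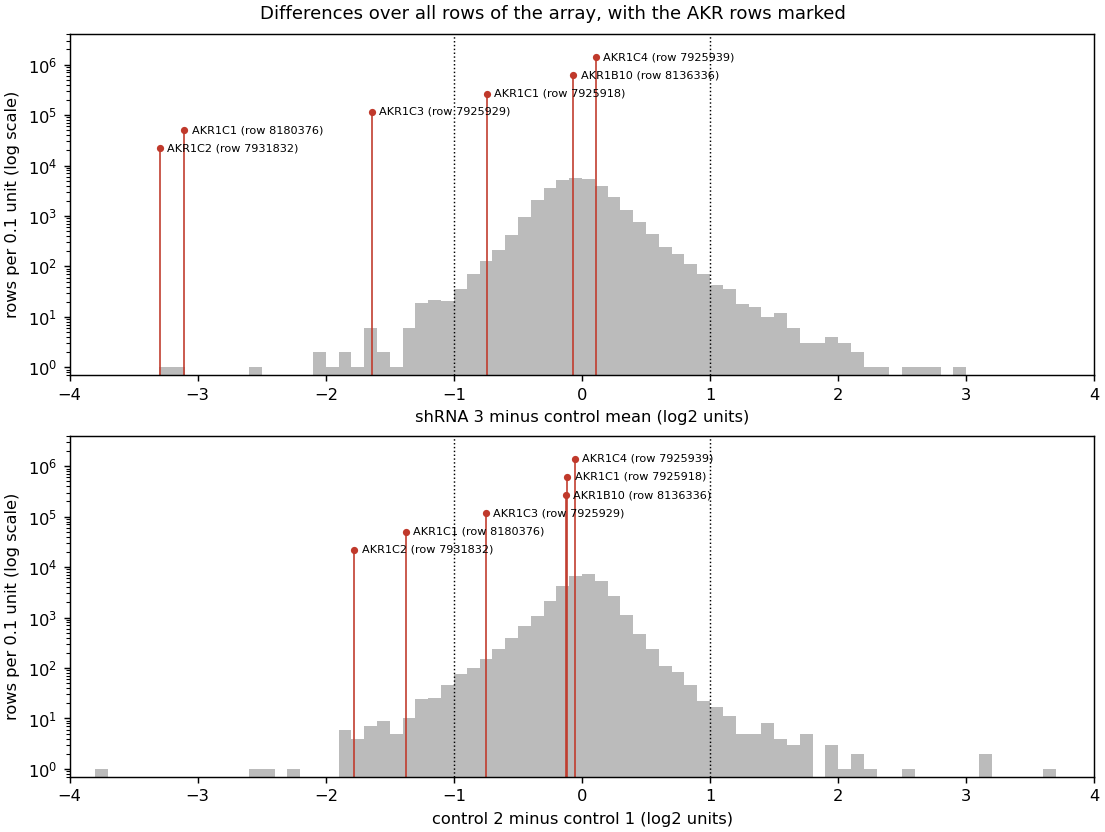
Histograms of all 33297 rows (vertical axes, rows per bin on a log scale) by the difference of shRNA 3 from the control mean (top) and of control 2 from control 1 (bottom), in log2 units. Red lines mark the 6 AKR rows, their height only spaces the labels, and dotted lines mark 2-fold. AKR1C2 and AKR1C1 (8180376) are the leftmost rows with shRNA 3, at -3.30 and -3.10, while some other rows have larger control gaps than theirs.

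The mean difference between the groups depended on single arrays. TIP-1 shRNA arrays averaged 8.83 ± 1.57 for AKR1C2 and controls 10.33 ± 1.26 (SD, n = 3 and 2), a difference of -1.50 (SE 0.94). It was -0.61 without control 1, -2.39 without control 2 and -0.60 without shRNA 3. For AKR1C1 row 8180376 the means were 8.75 ± 1.46 with TIP-1 shRNA and 10.17 ± 0.97 in controls, a difference of -1.42 (SE 0.85). It was -0.73 without control 1, -2.11 without control 2 and -0.58 without shRNA 3. AKR1C3 averaged 7.28 ± 0.79 with TIP-1 shRNA and 8.03 ± 0.53 in controls, a difference of -0.75 (SE 0.46), which was -0.38 without control 1, -1.12 without control 2 and -0.31 without shRNA 3. Each of these 3 differences was smaller than 1 SD of the TIP-1 shRNA arrays. The smaller differences were -0.30 (SE 0.22) for AKR1C1 row 7925918, which was -0.08 without shRNA 3, 0.22 (SE 0.10) for AKR1C4 and -0.23 (SE 0.14) for AKR1B10, which was -0.11 without shRNA 1.

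In the limma fit over all rows, 0 of the 6 AKR rows passed an adjusted p of 0.05, where 0.003% of all rows did, and 0 of 6 had an unadjusted p under 0.05, where 6.95% of all rows did. These counts too rest on the values that chose the genes, and nothing is read from them. The 3 TIP-1 shRNA arrays were all below both controls in 2 rows, AKR1C1 row 7925918 and AKR1B10 (14.5% of all rows), and all above in 1, AKR1C4 (11.6%). For AKR1C2, AKR1C3 and AKR1C1 row 8180376, the groups overlapped.

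The genes around the cluster were examined for low values with shRNA 3. The choice was made after the AKR1C values were known and took the genes within 500 kb of the 4 AKR1C genes that had a row with a single symbol. RefSeq gave 10 such genes, in the order AKR1E2, AKR1C6P, AKR1C8, UCN3, TUBAL3, NET1, CALML5, CALML3, ASB13 and TASOR2. Their differences with shRNA 3 lay between -0.33 and 0.24, and the gaps between the controls between -0.08 and 0.32. AKR1C8, which lies between AKR1C3 and AKR1C4, read 6.99, 7.01 and 6.95 in shRNAs 1, 2 and 3, against 7.02 and 7.06 in controls 1 and 2. AKR1C6P, a pseudogene on the far side of AKR1C1, read 6.01, 5.92 and 5.97 with shRNAs 1, 2 and 3, against 5.96 and 5.88 in the controls. Among the rows of this stretch, those at least 2-fold lower with shRNA 3 were the 3 of AKR1C1, AKR1C2 and AKR1C3. The brighter NET1 and TASOR2 differed by -0.33 and -0.20 with shRNA 3. The other neighbours read near or below the array medians (7.88 to 7.98). AKR1C8 was about as dim in every array as AKR1C1 row 8180376 and AKR1C2 with shRNA 3 (7.07 and 7.03). A low value was seen in a row near the medians, as AKR1C3 read 8.40 and 7.65 in controls and 6.39 with shRNA 3. CALML5, ASB13, CALML3 and UCN3 read 7.46 to 7.99 in controls. They differed by -0.12, 0.24, -0.14 and -0.22 with shRNA 3. A fall in the dimmer rows could go unseen, so how far the low values reached cannot be told from those.

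**Figure D3:**
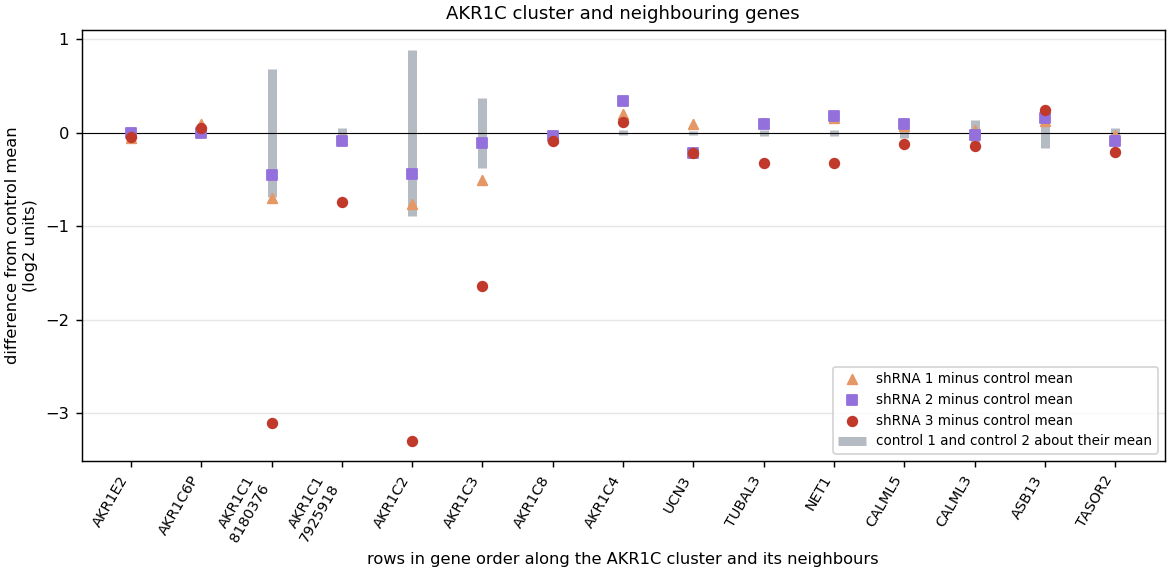
Difference of each TIP-1 shRNA array from the control mean, in log2 units (vertical axis), for the AKR1C rows and their neighbours in gene order (horizontal axis), with grey bars from 1 control to the other. shRNA 3 falls to -3.30 at AKR1C2, and the 10 neighbouring genes stay between -0.33 and 0.24. Apart from NET1 and TASOR2, those neighbours read near or below the array medians, and in the dimmer of them a fall could go unseen.

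Related enzymes were described next, from lists written with earlier results of these data known and tested in the fit over all rows. Of the other aldo-keto reductases, 8 of 10 genes were measured, and 0 passed in either direction, as of all 18417 genes with a single-symbol row. In limma, 0 of the 8 had an unadjusted p under 0.05, beside 1108 of the 18417. The median difference of the 8 was 0.00, beside -0.01 over all 18417. The aflatoxin aldehyde reductase AKR7A2 differed by 0.05 (SE 0.11, limma adjusted p = 0.908), AKR7A3 by 0.06 (SE 0.09) and AKR1C8 by -0.06 (SE 0.08). AKR7A2 came to -0.07 without control 1. KCNAB2, a potassium channel beta subunit built on the aldo-keto reductase fold, differed by -0.11 (SE 0.09). Its paralogue KCNAB1, named after its values were seen, read 11.10, 10.89 and 9.56 in shRNAs 1, 2 and 3, against 11.68 and 9.14 in controls 1 and 2. Control 2 was thus below control 1 by more than for any AKR1C row (difference -2.55), and shRNA 3 lay between the controls.

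Of the NRF2 targets outside the family, 28 of 32 were measured and none was called, with 3 at an unadjusted p under 0.05, beside 1108 of the 18417 genes. Of the 28, 23 were lower with TIP-1 shRNA and 5 higher, beside 9659 and 8758 of all genes. All shRNA arrays were below both controls for 9 and above both for 1, beside 2588 and 2295 of all genes. The list's median was -0.10, beside -0.01 over all genes, and -0.13 with quantile normalization. It was -0.04 after median centring, which moves the difference of every gene by the same amount. The list's place beside all genes was therefore unchanged by centring. SLC7A11, the cystine and glutamate exchanger that supplies glutathione synthesis, read 9.05, 9.39 and 8.44 in shRNAs 1, 2 and 3, against 9.91 and 10.23 in controls 1 and 2. All 3 shRNA arrays were below both controls, and control 2 was higher than control 1. The place of shRNA 3 as the lowest array was shared with AKR1C1, AKR1C2 and AKR1C3. Its difference was -1.11 (SE 0.27, limma adjusted p = 0.707), and its shRNA 3 difference of -1.62 made it the 1 gene of the list past 2-fold.

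The other leading genes of this list differed less. GCLC, the catalytic subunit of the first enzyme of glutathione synthesis, had a difference of -0.28 (SE 0.09), the glucuronate-forming enzyme UGDH -0.31 (SE 0.11) and the quinone reductase NQO1 -0.21 (SE 0.09), all at a limma adjusted p of 0.707. NQO1 read 12.83, 12.86 and 12.70 in shRNAs 1, 2 and 3, against 13.01 and 13.00 in controls 1 and 2. HMOX1, heme oxygenase, was named after its values were seen because shRNA 3 stood apart there too. It read 12.35, 12.38 and 10.90 in shRNAs 1, 2 and 3, against 11.46 and 11.52 in controls 1 and 2, so shRNAs 1 and 2 were above both controls and shRNA 3 below. Its group difference was 0.38 (SE 0.45, limma adjusted p = 0.834). In other genes of the list, also named after their values were seen, shRNA 3 stood apart upward. GSTM3 read 8.99, 8.86 and 9.83 in shRNAs 1, 2 and 3, against 9.46 and 9.53 in controls 1 and 2. ABCC3 read 9.81, 9.79 and 10.40 in shRNAs 1, 2 and 3, against 10.23 and 9.97 in controls 1 and 2. With shRNA 3, the list's differences ran from -1.62 to 0.33 with a median of -0.12, against -3.30 and -3.10 for AKR1C2 and AKR1C1.

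**Figure D4:**
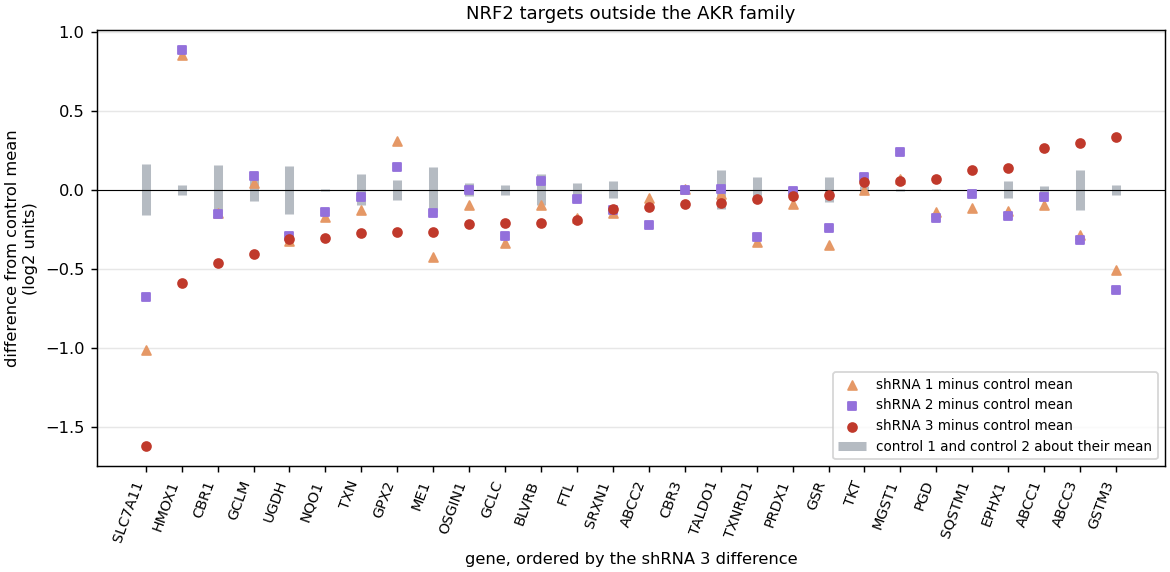
Difference of each TIP-1 shRNA array from the control mean, in log2 units (vertical axis), for 28 NRF2 targets outside the AKR family, ordered by shRNA 3, with grey bars from 1 control to the other. SLC7A11 is lowest at -1.62 with shRNA 3, HMOX1 is split between shRNA 3 and the other two, and 26 of the 28 genes lie within 0.5 of zero with shRNA 3.

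NRF2 and its regulators gave 11 measured genes of 12, none called, as of all 18417 genes, with a median of 0.00. In limma, 0 of the 11 had an unadjusted p under 0.05, beside 1108 of the 18417. KEAP1, which holds NRF2 for degradation, differed by 0.05 (SE 0.11, adjusted p = 0.914 in limma), a sign that turned without control 1 or shRNA 3. The small MAF partner MAFG differed by 0.12 (SE 0.09), the NRF2 relative NFE2L1 by 0.07 (SE 0.14) and RXRA by -0.04 (SE 0.09). The range with shRNA 3 was -0.15 to 0.52 across this list.

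Enzymes that share substrates with the AKR1C proteins were also measured. Of the steroid-metabolising enzymes and receptors, 27 of 32 had a row, none was called, as of all 18417 genes, and the median was 0.01. In limma, 1 of the 27 had an unadjusted p under 0.05, beside 1108 of the 18417. The hydroxysteroid dehydrogenases HSD17B14 (0.35, SE 0.13), HSD17B8 (-0.21, SE 0.08) and HSD17B10 (0.14, SE 0.09) and the oestrogen receptor ESR1 (-0.23, SE 0.13) had the smallest p, at limma adjusted p from 0.707 to 0.730. HSD11B1, which regenerates active cortisol, was named after its values were seen and read 7.01, 7.00 and 9.19 in shRNAs 1, 2 and 3, against 8.45 and 8.72 in controls 1 and 2. There shRNA 3 was the highest array, where it was the lowest for AKR1C1, AKR1C2 and AKR1C3, and shRNAs 1 and 2 lay below both controls (difference -0.86, SE 0.67, limma adjusted p = 0.764). Of 24 prostaglandin genes, all measured, none was called and 4 had an unadjusted p under 0.05, beside 1108 of all 18417 genes, with a median of 0.03. These were the thromboxane synthase TBXAS1 (-0.36, SE 0.10), the prostaglandin receptors PTGER2 (-0.29, SE 0.09) and PTGIR (-0.29, SE 0.10), and PTGDR2 (-0.27, SE 0.10), all at a limma adjusted p of 0.707.

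Among 29 measured genes of the polyol pathway and other aldehyde and carbonyl enzymes, of 30 listed, none was called and the median was 0.00. In limma, 3 of the 29 had an unadjusted p under 0.05, beside 1108 of all 18417 genes. ADH7, a retinol-oxidising alcohol dehydrogenase (-0.27, SE 0.09), the retinal dehydrogenase ALDH1A3 (-0.24, SE 0.08), the carbonyl reductase CBR4 (0.24, SE 0.09) and the glyoxalase HAGH (0.22, SE 0.10) had the smallest p. ALDH7A1, an aldehyde dehydrogenase of lysine breakdown, was the 1 gene at least 2-fold higher with shRNA 3, and was named after its values were seen. It read 6.95, 6.33 and 8.77 in shRNAs 1, 2 and 3, against 6.38 and 8.12 in controls 1 and 2, so control 2 was higher than control 1 there, opposite to AKR1C2. ALDH1A1, also named after its values were seen, had the control gap in the direction of AKR1C2. It read 6.45, 6.45 and 7.05 in shRNAs 1, 2 and 3, against 7.76 and 6.49 in controls 1 and 2. In this list 1 gene passed a 2-fold control gap in each direction, beside 33 lower and 55 higher in control 2 of all 18417 genes. Of the retinoid list, 16 of 22 genes were measured, none was called and the median was 0.00. In limma, 1 of the 16 had an unadjusted p under 0.05, beside 1108 of all 18417 genes. DHRS3, which reduces retinal, differed by -0.30 (SE 0.10), the retinal reductase RDH11 by 0.21 (SE 0.09), RDH8 by -0.16 (SE 0.09) and the retinoic acid binding protein CRABP2 by 0.24 (SE 0.13). Leaving out 1 array moved 13 of the 28 genes named from the lists by over 1.5 times in at least 1 case, none of them called. CRABP2 was 0.05 without control 2 and 0.43 without control 1, RDH8 was -0.07 without control 2, and HAGH was 0.09, HSD17B10 0.05 and UGDH -0.16 without control 1. ESR1 was -0.12 without control 2.

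Genes whose profile over the 5 arrays was closest to the AKR1C pattern were listed by distance. The pattern was the mean of the 4 rows of AKR1C1, AKR1C2 and AKR1C3, each centred on its own mean, and read 0.09, 0.32 and -1.60 in shRNAs 1, 2 and 3, against 1.10 and 0.09 in controls 1 and 2. Among rows with a single symbol outside the 7 genes, the closest were PLOD2, a collagen lysyl hydroxylase (Euclidean distance 0.80 log2 units over 5 arrays), the collagen chain COL6A3 (0.83), the growth factor binding protein IGFBP3 (0.93) and the matrix protein ADAMTSL1 (1.03). They were followed by GDPD3 (1.05), CFAP144P1 (1.06), CCDC80 (1.06), PTPRC (1.09), GLI2 (1.10) and GSKIP (1.13). The AKR1C rows themselves lay at 0.51 for AKR1C3, 0.80 and 1.37 for AKR1C1 and 1.07 for AKR1C2, so the pattern is a loose mean of rows that differ in size. AKR1C4 and AKR1B10 lay at 2.00 and 1.97.

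These genes were picked for their likeness to a pattern that is lowest with shRNA 3, so that feature is fixed by the choice, while the gap between the controls varied among them. PLOD2 read 11.74, 11.29 and 10.34 in shRNAs 1, 2 and 3, against 12.19 and 11.55 in controls 1 and 2. IGFBP3 read 11.80, 11.33 and 10.24 in shRNAs 1, 2 and 3, against 12.09 and 12.05 in controls 1 and 2, with no wide gap between the controls (difference -0.04). PTPRC, the leukocyte marker CD45, had the widest control gap of the 10 and read 8.39, 7.75 and 6.84 in shRNAs 1, 2 and 3, against 8.65 and 7.32 in controls 1 and 2. The other immune markers CD14, AIF1 and CSF1R had gaps between the controls of 0.15, 0.02 and -0.02, and the summed level of all 4 ran from 27.88 to 29.77 with TIP-1 shRNA and from 28.74 to 29.92 in controls. The neuronal marker SYT1 was also low with shRNA 3 and read 8.67, 8.66 and 7.35 in shRNAs 1, 2 and 3, against 8.47 and 8.51 in controls 1 and 2. The other neuronal markers did not share this. RBFOX3 read 8.12, 8.05 and 8.09 in shRNAs 1, 2 and 3, against 8.15 and 8.62 in controls 1 and 2. SNAP25 read 7.38, 7.27 and 7.44 in shRNAs 1, 2 and 3, against 7.59 and 7.69 in controls 1 and 2. Both were below both controls in all 3 shRNA arrays, with shRNA 2 lowest. The summed level of SYT1, RBFOX3 and SNAP25 ran from 22.88 to 24.17 with TIP-1 shRNA and from 24.22 to 24.82 in controls. The part of other cell types in the AKR1C pattern was not tested, and 0 of these 7 markers passed the limma threshold (1 of them, SNAP25, at an unadjusted p under 0.05).

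**Figure D5:**
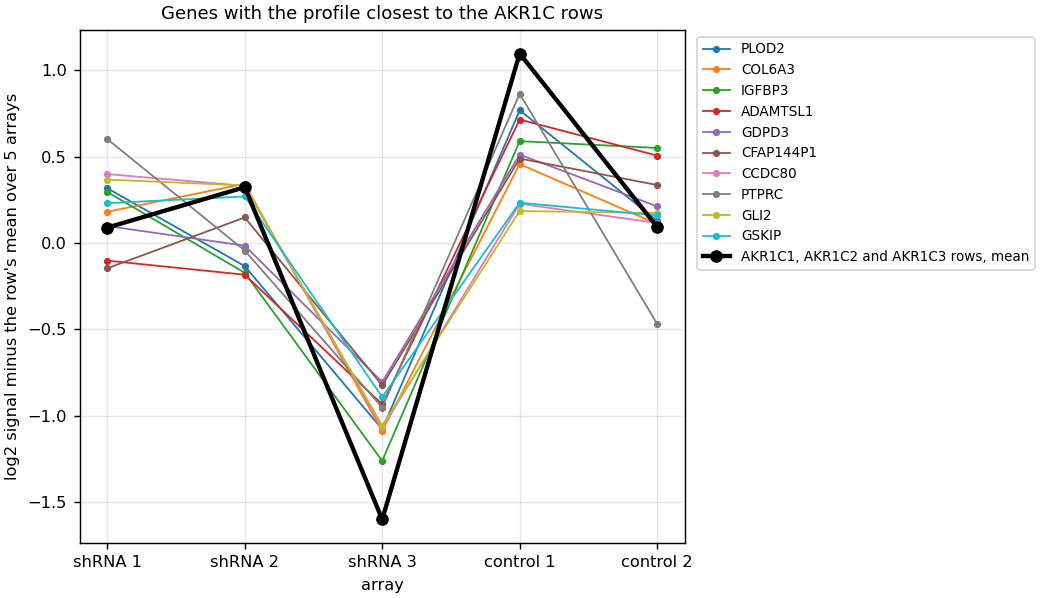
Log2 signal minus each row's mean over the 5 arrays (vertical axis) in each array (horizontal axis), for the 10 closest genes (thin lines) and the mean of the AKR1C1, AKR1C2 and AKR1C3 rows (black). The lines only join the points of a gene, and every one is lowest with shRNA 3, where the AKR1C mean is -1.60.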

How the data were processed

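RNA from 5 D54 cultures was measured on 1 Affymetrix array each. The authors deposited log2 signals, processed with the Affymetrix Exon Array Computational Tool per the series' design text. The sources used here do not give the background correction, the probe summary or the normalization. The values were used as deposited. Of 33297 rows, 19460 had 1 gene symbol in the platform annotation, which can be old, 1754 had several and 12083 none.

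Differences, TIP-1 shRNA minus control shRNA, were fitted over all rows by limma (version 3.58.1, R version 4.3.3) with its moderated two-sided test, p-values adjusted by Benjamini-Hochberg over the whole table and called at 0.05. The fit was tested on simulated data. Differences of shRNA 3 and between the controls were not tested and were counted at 2-fold. A gene with several rows was represented in a list by the row with the highest mean. The alternatives were quantile normalization, median centring, rows with a mean of at least 6, a trended robust fit, array weights, the replicate number as a block, another row per gene, single-symbol rows and leaving out each array.

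The AKR genes and the 7 related lists were chosen with earlier results of these data known. Named were all AKR rows, the silenced gene, the 10 nearest profiles and, in each list, up to 4 genes with the smallest p, any past the threshold and any whose shRNA 3 value lay 2-fold outside both controls. Older symbols were matched through RefSeq (GRCh38.p14). No build is stated for the arrays, so coordinates are given for RefSeq sequences alone. The number of arrays limits the precision, and the spread behind each p-value is that between 2 control clones and 3 different shRNAs.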

Additional observations from a re-analysis of the deposited data

How the results depend on the processing

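The number of AKR rows called stayed at 0 in all alternatives that kept both controls. Of these, array weights, the trended robust fit and the limit on dim rows were added for these rows and the lists after seeing the data. The limit on dim rows left out AKR1C4 and AKR1B10, which could not be called there. Without shRNA 2 no row of the whole table was called, so that 0 is no sign of stability. The number at least 2-fold lower with shRNA 3 stayed at 3, and the number at least 2-fold lower in control 2 than in control 1 stayed at 2. The count of rows called in the whole table was 1 as deposited, 2 with array weights, 15 with the replicate block and, with single arrays removed, 0 to 6 (6 if shRNA 3 was removed, 2 for shRNA 1, 0 for shRNA 2 and for each control). With the block, 1 gene of the related lists, HSD11B1, was called, against 0 otherwise. That fit drops shRNA 3, which has no partner. The correlation of deviations was 0.049 between shRNA 1 and control 1 and -0.053 between shRNA 2 and control 2, too low to treat equal numbers as a pairing. Signs turned in 10 of 316 values of single genes, all near zero: AKR1B10 with shRNA 3 to 0.022 and RXRA to 0.0212 with median centring, AKR1C8 to 0.00172 with median centring and 0.00629 with quantile normalization, and KEAP1 to -0.0275 with the replicate block. Leaving out 1 array also turned AKR7A2 (-0.0712 to 0.18), NFE2L1 (-0.0224 to 0.18), KEAP1 (-0.0275 to 0.131) and RXRA (-0.115 to 0.0352). A lone control was assumed to vary like the other arrays.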
